A study of Mus musculus with 8 samples.

Results

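Genes that mark T cells and carry their antigen signals were compared in tumors of the colon from WT and MDR1A KO mice. The list held 32 genes named by symbol, and it was drawn up with earlier results of these data known. For each gene the probe set annotated with that symbol alone was taken, and where there were several, the one with the highest mean over the 8 arrays. Of the 32 genes 29 could be measured in this way, among 22180 genes with such a probe set on the array. The other 3, Cd247, Lck and Il2rg, had no probe set of their own in the annotation used here and were not analysed.

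Both groups were male FVB/N mice that received the carcinogen azoxymethane (AOM) once, at 10 mg/kg and 6 weeks of age, and then 3 cycles of 2.5% dextran sulfate sodium (DSS) in the drinking water, each of 7 days. DSS injures the colonic mucosa, and the combination gives tumors on the ground of colitis. WT mice carried an intact Abcb1a gene. MDR1A KO mice lacked it in every cell, so that the deletion was not limited to epithelium or to leukocytes. On day 84 tumors, recorded as adenomas, were excised, and 1 tumor from each of 4 mice per genotype was hybridised to its own array. The replicates are therefore separate animals. Abcb1a was at 9.04 ± 0.32 (SD, n = 4) on the log2 scale in WT tumors and at 6.38 ± 0.35 (SD, n = 4) in MDR1A KO tumors, which matches the labels. The array medians lay between 5.62 and 5.67, and no array copied another.

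T cells recognise peptides through a receptor that has no signaling tail of its own. The CD3 chains pass the signal on, the coreceptors CD4 and CD8 bring the kinase LCK to the complex, and LCK and ZAP-70 phosphorylate adaptors such as LAT. In the colon, T cells lie in the epithelium and the lamina propria, and regulatory T cells, which depend on FOXP3 and on the interleukin-2 receptor, restrain the response to the gut flora. Interleukin-2 and interleukin-7 keep these cells alive, and BCL11B and the Ikaros family of transcription factors maintain their identity.

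The sequences before the start sites of the CD3 genes, which lie next to each other, and of the 3 other genes with the lowest p are shown. Across tumors, Pearson's r with Cd3e was 0.94 for Cd3g and 0.79 for Cd3d. It was over 0.8 for 10 of the 28 members other than Cd3e, among them Cd4 (0.96) on chromosome 6. The share of all genes over 0.8 was not computed, and a part of gene position in this was not tested. Each run is the 250 bases that end just before an annotated RefSeq start site in build GRCm38.p6, 5′ to 3′ on the strand of the gene. Cd3g and Cd3d are transcribed away from each other, from start sites 1355 bases apart, and Cd3e is the next gene. The windows are chr9:44980432-44980681 (minus strand, Cd3g), chr9:44981536-44981785 (plus, Cd3d), chr9:45009612-45009861 (minus, Cd3e), chr2:11642542-11642791 (plus, Il2ra), chr12:108003415-108003664 (minus, Bcl11b), and for Foxp3, which has 2 annotated starts, chrX:7579426-7579675 and chrX:7580233-7580482 (plus). Capitals mark letters searched for on both strands, none of which contains another, namely TGTGGT for RUNX factors, CAGGAAG for ETS factors, AGATAA for GATA factors, CTTTGA for the TCF/LEF factors and TATAAA for the TATA box.
Cd3g: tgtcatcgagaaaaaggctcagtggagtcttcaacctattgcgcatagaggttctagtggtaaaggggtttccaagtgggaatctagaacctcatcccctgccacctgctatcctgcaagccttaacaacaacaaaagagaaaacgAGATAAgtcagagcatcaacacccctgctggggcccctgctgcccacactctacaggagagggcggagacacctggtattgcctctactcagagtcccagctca
Cd3d: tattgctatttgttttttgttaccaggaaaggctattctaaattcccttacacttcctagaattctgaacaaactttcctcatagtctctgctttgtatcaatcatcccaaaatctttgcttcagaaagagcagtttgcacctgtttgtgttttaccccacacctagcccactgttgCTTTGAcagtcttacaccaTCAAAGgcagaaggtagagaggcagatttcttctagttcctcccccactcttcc
Cd3e: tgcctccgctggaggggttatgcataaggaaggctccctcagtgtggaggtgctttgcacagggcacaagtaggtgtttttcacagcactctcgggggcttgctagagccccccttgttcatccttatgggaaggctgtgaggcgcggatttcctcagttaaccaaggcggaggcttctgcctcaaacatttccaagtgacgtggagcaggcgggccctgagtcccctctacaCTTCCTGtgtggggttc
Il2ra: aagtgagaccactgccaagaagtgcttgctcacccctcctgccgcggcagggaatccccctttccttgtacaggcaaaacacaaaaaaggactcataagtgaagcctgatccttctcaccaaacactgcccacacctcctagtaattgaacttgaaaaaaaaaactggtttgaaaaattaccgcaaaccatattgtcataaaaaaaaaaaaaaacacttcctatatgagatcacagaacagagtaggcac
Bcl11b: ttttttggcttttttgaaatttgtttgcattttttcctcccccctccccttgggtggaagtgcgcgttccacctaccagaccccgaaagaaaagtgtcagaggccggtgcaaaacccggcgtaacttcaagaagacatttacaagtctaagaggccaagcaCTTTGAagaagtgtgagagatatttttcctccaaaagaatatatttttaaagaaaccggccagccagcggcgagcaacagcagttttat
Foxp3 upstream start: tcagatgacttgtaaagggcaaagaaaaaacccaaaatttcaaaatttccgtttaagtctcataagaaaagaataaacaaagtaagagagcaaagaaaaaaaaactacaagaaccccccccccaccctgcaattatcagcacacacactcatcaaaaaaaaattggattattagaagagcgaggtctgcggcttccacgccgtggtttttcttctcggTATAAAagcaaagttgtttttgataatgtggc
Foxp3 downstream start: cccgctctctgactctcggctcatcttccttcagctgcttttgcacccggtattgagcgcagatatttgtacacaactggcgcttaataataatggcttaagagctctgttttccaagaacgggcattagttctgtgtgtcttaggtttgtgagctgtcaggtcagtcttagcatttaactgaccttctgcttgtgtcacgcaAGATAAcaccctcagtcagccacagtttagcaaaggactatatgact

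Cd3g held the GATA letters, Cd3d the TCF/LEF letters at 2 places and Cd3e the ETS letters, so that these 3 neighbours had none of the 5 motifs in common. Bcl11b held the TCF/LEF letters, the upstream Foxp3 window the TATA letters and the downstream one the GATA letters, and the Il2ra window held none of the 5. In all, 21 of the 32 genes were matched to 27 windows. The ETS letters were in 9 of these (33.3%) and in 10.8% of all 32851 windows of this length. The RUNX letters were in 18.5% against 14%, the TCF/LEF letters in 14.8% against 13.8%, the TATA letters in 11.1% against 12.4% and the GATA letters in 7.41% against 9.99%. A match is a description of the letters, not of a bound factor.

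Of the 29 measured T cell genes, 20 had a higher and 9 a lower mean in MDR1A KO tumors, and the difference was small for most of them. The median log2 fold change (MDR1A KO minus WT) was 0.11, against 0.00275 over all genes, with a range from -0.15 (Sh2d1a) to 0.99 (Cd3g). At an unadjusted p under 0.05 from limma, 4 genes were higher, namely Cd3g, Il2ra, Bcl11b and Foxp3, which is 13.8% of the members beside 3.73% of all genes called higher in this way. At that level 0 members were lower, beside 2.72% of all genes. After Benjamini-Hochberg adjustment over all named probe sets, 0 members passed by limma or by the methods' t-test, the adjusted p of the members from limma lying between 0.738 and 0.998 (background 0.018%). The study's criterion, an unadjusted p under 0.05 with at least a 2-fold change, was met by 0 members (background 0.248%), and in 0 members were all 4 tumors of a genotype above all 4 of the other (background 3.73%, of which 2.15% higher and 1.59% lower). In 24 genes the 95% interval of the difference lay within 2-fold in either direction, so that for these a larger change of the mean was outside the interval. Among the 24 are the 5 members in the lowest 33.3% of named probe sets, where the array may not resolve a change. The share of all genes with such an interval was not computed. A change of RNA per T cell and a change in the number of T cells cannot be told apart in RNA from whole tumors.

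**Figure D1:**
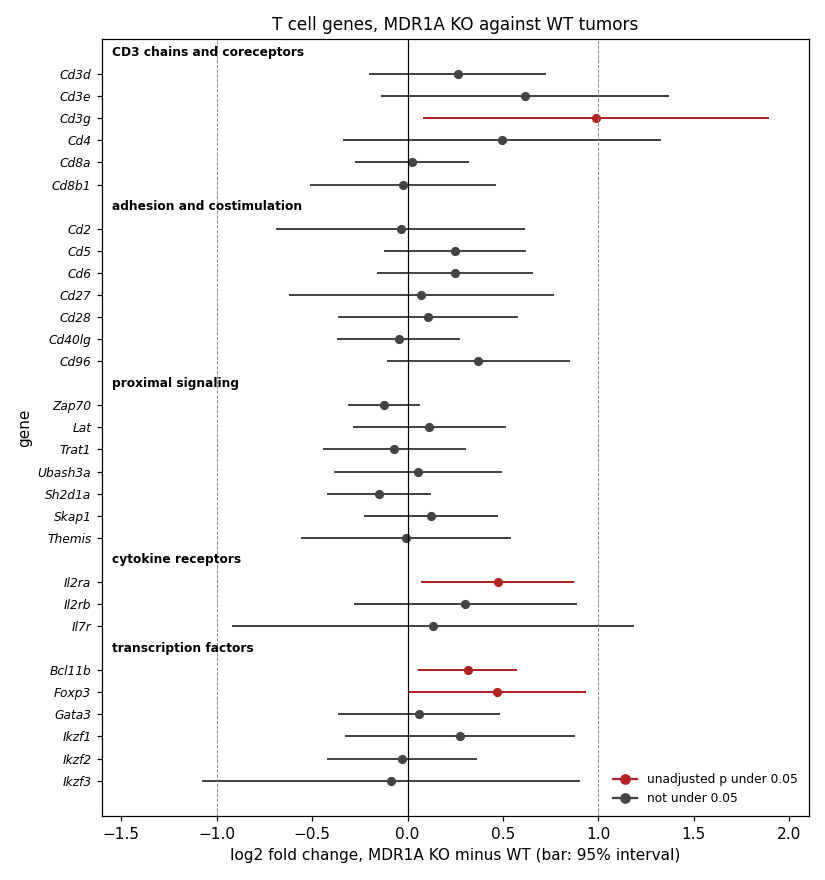
Log2 fold change (MDR1A KO minus WT, points) with its 95% interval from limma (bars) for the 29 measured T cell genes, grouped by role, with dashed lines at 2-fold in either direction. Cd3g, Il2ra, Bcl11b and Foxp3, in red, have an unadjusted p under 0.05, and most other points lie close to 0.

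Among the CD3 chains and coreceptors, 5 of 6 measured genes had higher means in MDR1A KO tumors and 1 of 6, Cd3g, had an unadjusted p under 0.05, with a median log2 fold change of 0.38 for the group. Cd3g encodes the gamma chain of CD3. Its log2 expression was 7.26, 5.89, 7.93 and 6.60 in WT replicates 1 to 4 and 8.01, 8.50, 7.56 and 7.57 in MDR1A KO replicates 1 to 4. WT replicates 2 and 4 were low, while WT replicate 3 lay above MDR1A KO replicates 3 and 4, so that the groups overlapped. The log2 fold change was 0.99 (standard error 0.40, 1.98-fold, p = 0.0349 and adjusted p = 0.757 from limma), and a two-sided exact permutation test gave p = 0.11, where 0.029 is the smallest p that 4 tumors against 4 allow.

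Cd3e, the gene of the epsilon chain, had the same order of tumors within WT. The study also stained this chain as protein in sections. It reported no substantial difference in CD3e+ T cells between WT and MDR1A KO tumors, which is a measure of stained cells and not of RNA. The Cd3e values on the arrays were 7.43, 6.34, 7.87 and 6.41 in the WT tumors and 7.48, 8.05, 7.39 and 7.60 in the MDR1A KO tumors. MDR1A KO replicate 2 and WT replicate 3 were the highest of all 8, and WT replicates 2 and 4 lay well below every other tumor. The log2 fold change was 0.62 (standard error 0.33, 95% interval -0.13 to 1.36, p = 0.0967 from limma, exact permutation test, p = 0.23). For Cd3d, the delta chain, the WT values were 5.33, 4.71, 5.82 and 5.41 and the MDR1A KO values 5.48, 5.73, 5.66 and 5.45. Here WT replicate 2 alone stood below the rest, and the log2 fold change was 0.26 (0.20, 95% interval -0.19 to 0.72).

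Cd4, the coreceptor gene of helper and regulatory T cells that some macrophages also express, followed Cd3e. It was at 8.14, 6.87, 8.45 and 7.00 in the WT tumors and at 8.21, 8.54, 7.54 and 8.15 in the MDR1A KO tumors, with a log2 fold change of 0.50 (0.37, 95% interval -0.33 to 1.32). Again WT replicates 2 and 4 were the lowest and the groups overlapped widely. The coreceptor genes of cytotoxic T cells hardly differed in their means. Their group means, from 5.16 to 5.29, lay just above 5.06, the limit of the lowest 33.3% of named probe sets. Their intervals overlapped that of Cd4, and a contrast with Cd4 was not tested. Cd8a was at 5.12, 5.17, 5.18 and 5.15 in the WT tumors and at 5.41, 5.34, 4.79 and 5.19 in the MDR1A KO tumors, a log2 fold change of 0.03 (0.13, 95% interval -0.27 to 0.32). It did not share the low values of WT replicates 2 and 4, and its WT tumors spread over only 0.068. Cd8b1 was at 5.29, 4.63, 5.83 and 5.43 and at 5.28, 5.34, 5.16 and 5.31, in the same order of groups, a log2 fold change of -0.02 (0.21, 95% interval -0.51 to 0.46). The lowest and highest of its 8 values were WT replicates 2 and 3.

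**Figure D2:**
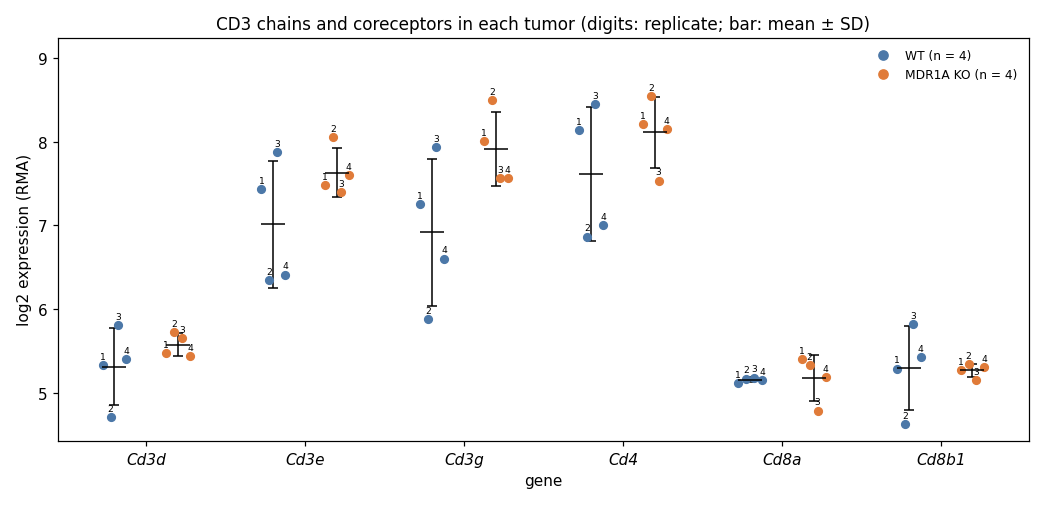
Log2 expression of the CD3 chain and coreceptor genes in each tumor (blue, WT; orange, MDR1A KO; digits give the replicate, bars the mean and SD, n = 4). WT replicate 2 is lowest in Cd3d, Cd3e, Cd3g, Cd4 and Cd8b1, at 4.71, 6.34, 5.89, 6.87 and 4.63, and the Cd8a values stay between 4.79 and 5.41.

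T cell receptor genes with a probe set of their own in the annotation used here were 8 variable region genes on 21 probe sets, of which 5 belong to the alpha, 1 to the beta and 2 to the gamma locus. Joining and constant region genes were not analysed here. Among them is Trgj1, a gamma joining gene that the study lists as higher in MDR1A KO tumors. Variable genes are near copies of each other, so that a probe set may take up signal of related genes. Trgv6, a gamma variable gene, had 4.02, 4.23, 4.74 and 4.70 in WT tumors and 4.67, 4.998, 5.51 and 4.92 in MDR1A KO tumors, with a log2 fold change of 0.60 (0.21, adjusted p = 0.738 from limma) at a signal in the lowest 33.3% of named probe sets. It was the only one of the 8 at an unadjusted p under 0.05. Trbv13-2, the beta gene, had the next lowest p and a lower mean in MDR1A KO tumors (-0.35, 0.17, adjusted p = 0.793 from limma). Its group means of 2.75 and 2.40 were also in the lowest 33.3%. Trav9d-3 had 0.71 (0.36, adjusted p = 0.798 from limma) at its brightest probe set, and its 5 probe sets ranged from -0.11 to 0.71. Of the 8 genes, 5 had higher and 3 lower means in MDR1A KO tumors.

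The genes of adhesion and costimulation gave no call in either direction. Cd2, whose product binds CD48 on the partner cell in mice, had a log2 fold change of -0.04 (0.29), and the scavenger receptor family genes Cd5 and Cd6, which tune the receptor signal, had 0.25 (0.16) and 0.25 (0.18). Cd28, the main costimulatory receptor, had 0.11 (0.21), Cd27 of the TNF receptor family 0.07 (0.31) and Cd40lg, the ligand by which helper T cells activate B cells, -0.05 (0.14). Cd96, a receptor shared with NK cells, had the largest difference of the group (0.37, 0.21, p = 0.112 from limma, exact permutation test, p = 0.20). In Cd27, WT replicate 3 was at 6.12 and the other 7 tumors between 4.55 and 5.52.

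The proximal signaling genes had the smallest differences of the 5 groups, with 3 of 7 measured genes higher and 4 lower and a median log2 fold change of -0.0068. Zap70, the kinase that docks on the phosphorylated CD3 chains, was at 5.51, 5.59, 5.68 and 5.54 in WT tumors and at 5.41, 5.55, 5.49 and 5.38 in MDR1A KO tumors. The tumors of each genotype spread over only 0.17, and the comparison gave a log2 fold change of -0.12 (0.08, 95% interval -0.31 to 0.06, exact permutation test, p = 0.086). Lat, the adaptor that ZAP-70 phosphorylates, was at 6.74, 6.399, 7.03 and 6.78 and at 6.98, 7.23, 6.65 and 6.54 in the same order, with a log2 fold change of 0.11 (0.18). The ranges of Lat in both genotypes overlapped almost wholly. The kinase substrate adaptor gene Skap1 had 0.12 (0.15). Trat1 (-0.07, 0.16), Ubash3a (0.06, 0.19), Sh2d1a (-0.15, 0.12) and Themis (-0.01, 0.24), which encode an adaptor of the receptor complex, a phosphatase that dampens its signal, the SLAM adaptor SAP and a protein of thymocyte selection, had a mean under 5.06 on the log2 scale, the limit of the lowest 33.3% of named probe sets, as did Cd40lg, and are called dim. For such dim genes the array may not resolve a change.

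Of the cytokine receptor genes, Il2ra encodes the alpha chain of the interleukin-2 receptor (CD25). It was higher in MDR1A KO tumors at an unadjusted p of 0.0240 from limma. Its values were 7.07, 6.67, 6.88 and 6.32 in the WT tumors and 7.22, 7.55, 7.08 and 6.99 in the MDR1A KO tumors. Only MDR1A KO replicate 4 fell below a WT tumor, WT replicate 1, and the log2 fold change was 0.47 (standard error 0.17, 1.39-fold, adjusted p = 0.738 from limma, exact permutation test, p = 0.057). Il2rb, the chain shared with the interleukin-15 receptor, had 0.30 (0.26). Il7r, the receptor gene of naive and memory T cells and of innate lymphoid cells, had 0.13 (0.47), and its WT tumors spread most of all members, over 2.37 units. WT replicate 1 was at 8.28 and WT replicate 4 at 5.91, while the MDR1A KO tumors lay between 6.87 and 7.28.

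Among the transcription factors, Foxp3 and Bcl11b were higher in MDR1A KO tumors at an unadjusted p under 0.05. Foxp3, the lineage factor of regulatory T cells, was at 7.42, 6.45, 7.15 and 6.73 in WT tumors and at 7.48, 7.68, 7.19 and 7.28 in MDR1A KO tumors. WT replicate 1 was at the level of the MDR1A KO tumors. The log2 fold change was 0.47 (standard error 0.21, 1.38-fold, p = 0.0479 and adjusted p = 0.780 from limma, exact permutation test, p = 0.11). Bcl11b, which sustains T cell identity, was at 6.85, 7.00, 7.21 and 6.98 and at 7.43, 7.09, 7.44 and 7.33 in the same order. Its spread was small, WT replicate 3 overlapped MDR1A KO replicate 2 only, and the log2 fold change was 0.31 (standard error 0.11, 1.24-fold, p = 0.0200 and adjusted p = 0.738 from limma, exact permutation test, p = 0.057). Unlike the CD3 genes, Bcl11b was not low in WT replicate 2 or high in MDR1A KO replicate 2.

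Gata3, a factor of helper T cells and of innate lymphoid cells, was at 6.81, 6.28, 6.41 and 6.26 in WT tumors and at 6.90, 6.67, 6.25 and 6.19 in MDR1A KO tumors, with a log2 fold change of 0.06 (0.19). Replicate 1 was highest in both genotypes. A dimmer probe set of Gata3, the only member with more than 1 probe set, had -0.03. The Ikaros family genes had 0.27 (0.26) for Ikzf1, which most lymphoid and myeloid cells use, -0.03 (0.17) for Ikzf2, found in many regulatory T cells, and -0.09 (0.44) for Ikzf3, which B cells and plasma cells also express. Ikzf3 reached 7.82 in WT replicate 3, against 5.62 to 6.96 in the other tumors.

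**Figure D3:**
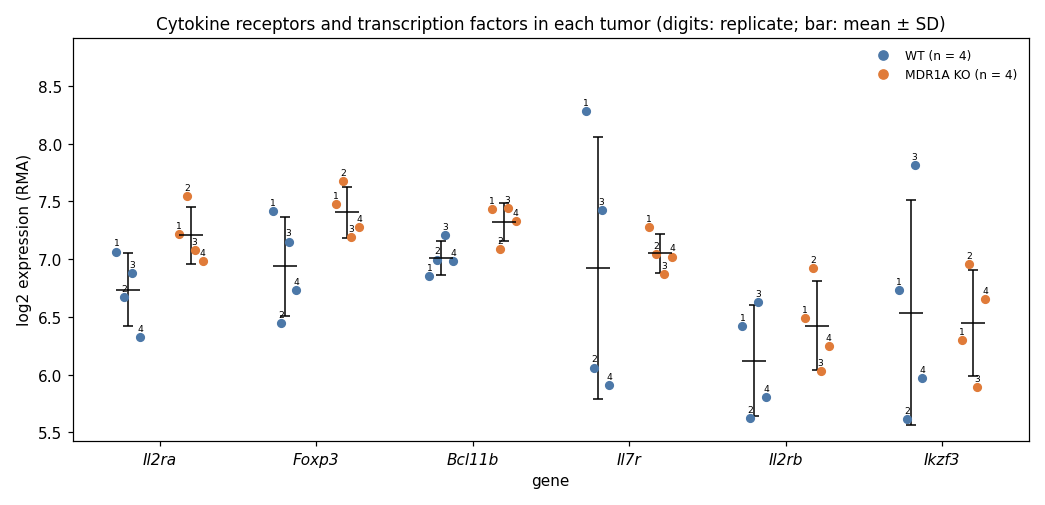
Log2 expression of 3 cytokine receptor and 3 transcription factor genes in each tumor (blue, WT; orange, MDR1A KO; digits give the replicate, bars the mean and SD, n = 4). Il2ra, Foxp3 and Bcl11b have higher means in MDR1A KO tumors, while the WT tumors of Il7r reach from 5.91 to 8.28 and WT replicate 3 leads Ikzf3 at 7.82.

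The 4 calls at an unadjusted p depended on single tumors. Without WT replicate 3 there were 10 (Cd3d, Cd3e, Cd3g, Cd4, Cd5, Cd27, Il2ra, Bcl11b, Foxp3 and Ikzf1, all higher). In contrast, 1 was left without WT replicate 2, without WT replicate 4 or without MDR1A KO replicate 2 (Bcl11b each time). Without MDR1A KO replicate 1, 1 was left (Il2ra), as was 1 (Bcl11b) under the methods' t-test. The share of all genes with a tumor left out was not computed, so these counts have no background.

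Tumors of the same genotype differed by more than the means of the genotypes did. Averaged over the 29 genes, log2 expression was 6.08, 5.51, 6.36 and 5.71 in WT replicates 1 to 4 and 6.14, 6.37, 5.88 and 5.98 in MDR1A KO replicates 1 to 4, so that WT tumors held both the lowest values and 1 close to the highest. The group means were 5.91 ± 0.38 and 6.09 ± 0.21 (SD, n = 4). WT replicate 2 was the lowest of all 8 tumors in 18 of the 29 genes, while it was lowest in 13.9% of all genes. WT replicate 3 and MDR1A KO replicate 2 were each the highest in 12, against 15.3% and 11% of all genes. In 18 of the 29 genes WT replicates 2 and 4 were the lower pair of WT tumors, which held for 14.5% of all genes.

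The spread was wider in WT tumors, as it was on the arrays in general. The WT SD exceeded the MDR1A KO SD in 20 of the 29 genes, or 69.0%, beside 65.8% of all genes. Its median was 0.39 in WT and 0.25 in MDR1A KO tumors, against 0.18 and 0.14 over all genes. A range of more than 1 log2 unit was found in 12 T cell genes among WT tumors and in 2 among MDR1A KO tumors, against 7.12% and 3.06% of all genes.

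**Figure D4:**
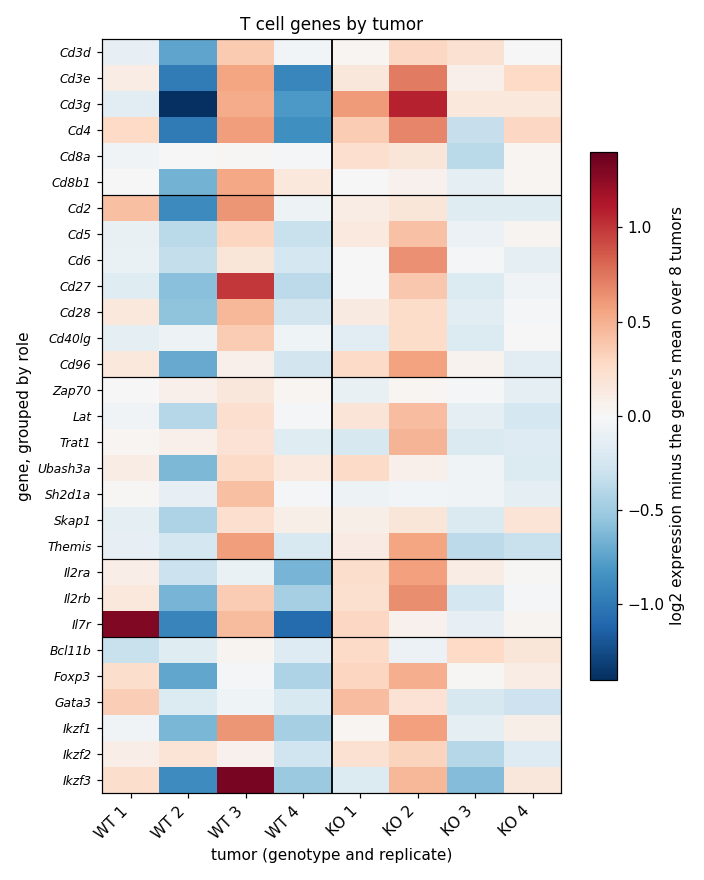
Log2 expression of each T cell gene (rows, grouped by role) in each tumor (columns), minus the mean of that gene over the 8 tumors (red, above; blue, below). WT replicate 2 is lowest in 18 rows, and WT replicate 3 and MDR1A KO replicate 2 are highest in 12 rows each.

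Across the 8 tumors part of the T cell genes varied with Cd3e. Of 35 relations with Cd3e that were computed, 28 concerned the other members and 7 concerned Ptprc and single markers of other cells. Pearson's r was over 0.8 for 10 of the 28 members and under 0.5 for 7, with a median of 0.71. In 7 members both Pearson's r and Spearman's rho had an adjusted exact permutation p under 0.05. The share of all genes with such relations was not computed, so these counts and those below have no background. For Cd4, r was 0.96 (exact permutation test, p = 7.44e-05, adjusted p = 0.00260) and rho 0.98 (exact permutation test, p = 0.000397, adjusted p = 0.00463). For Cd3g, r was 0.94 (exact permutation test, p = 0.000818, adjusted p = 0.00781) and rho 0.90 (p = 0.00456, adjusted p = 0.0228). Cd8a and Zap70 did not follow, with r of 0.19 and -0.08 (exact permutation tests, p = 0.66 and 0.84) and rho of 0.62 and 0 (exact permutation tests, p = 0.11 and 1).

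Single relations changed without WT replicates 2 and 4, the tumors farthest from the median of Cd3e, while the median r was then 0.70. Pearson's r was then 0.80 for both Cd4 and Cd3g, and 4 of the 10 members stayed over 0.8 (Cd5, Cd6, Il2rb and Ikzf1). In 16 members r was lower, as in Il7r and Foxp3, which had -0.23 and 0.36 in place of 0.71 and 0.89. In 12 members r was higher, as in Cd40lg, Trat1 and Themis, which had 0.94, 0.88 and 0.85 in place of 0.51, 0.41 and 0.63, so that 7 of the 28 were over 0.8. Of the 7 genes that are not members, Jchain and Ptprc had an adjusted p under 0.05 by both measures. Jchain, whose product links immunoglobulin units in plasma cells, had r = 0.96 (exact permutation test, p = 0.00134, adjusted p = 0.00938) and rho = 0.98 (exact permutation test, p = 0.000397, adjusted p = 0.00463), and 0.76 without those 2 tumors. The pan-leukocyte gene Ptprc, the gene of CD45, had r = 0.93 (exact permutation test, p = 0.00258, adjusted p = 0.0113) and rho = 0.86 (exact permutation test, p = 0.0107, adjusted p = 0.0341), and 0.82 without them. Ptprc was at 8.74, 7.88, 9.44 and 7.75 in WT tumors and at 8.68, 9.16, 8.49 and 8.51 in MDR1A KO tumors, again lowest in WT replicates 2 and 4. In the other 5 genes the adjusted p was above 0.05 by both measures. Pecam1 of endothelial cells had r = 0.73 (exact permutation test, p = 0.0404, adjusted p = 0.0883) and rho = 0.79, Adgre1 of macrophages 0.66 (adjusted p = 0.137) and 0.43, and Ncr1 of NK cells 0.39 (adjusted p = 0.402) and 0.21. Epcam of epithelial cells had r = -0.47 (adjusted p = 0.307) and rho = -0.48, and the collagen gene Col1a1 0.19 (adjusted p = 0.681) and -0.19. Within genotypes, with the mean of each genotype taken off, r was 0.97 for Pecam1. It was then 0.98 for Ptprc, 0.96 for Cd4, 0.93 for Cd3g, 0.45 for Zap70 and 0.18 for Cd8a. For Adgre1, Ncr1, Epcam and Col1a1 it was 0.47, 0.42, -0.45 and 0.13. These values within genotypes were not tested.

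Genes of T cell signaling beyond the members, of checkpoints and of the Gimap family gave no call. Among 27 measured genes of T cell signaling beyond the members, the lowest p belonged to the adaptor gene Fyb (log2 fold change 0.40, standard error 0.20), the phospholipase gene Plcg1 (-0.22, 0.12) and the adaptor gene Lcp2 (0.30, 0.17). In this list 19 means were higher and 8 lower, the median log2 fold change was 0.09, and 0 had an unadjusted p under 0.05 in either direction. The checkpoint and costimulatory genes had a median of 0.15 over 11 genes with 0 at that level, led by Tnfrsf4 (0.34, 0.19) and Tigit (0.43, 0.27). All 8 Gimap genes, GTPases of lymphocyte survival, had slightly higher means (median 0.19, 0 at that level). By limma these counts are beside 6.46% of all genes in both directions together.

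Of 25 measured T cell subset and migration genes, 3 were higher at an unadjusted p under 0.05 and 0 lower. The share of all genes was 3.73% for higher and 2.72% for lower. Klrg1, a receptor of effector and of some regulatory T cells and of NK cells, was at 5.73, 5.67, 6.60 and 5.59 in WT tumors and at 6.75, 7.09, 6.80 and 6.41 in MDR1A KO tumors. WT replicate 3 lay above MDR1A KO replicate 4 only, and the log2 fold change was 0.87 (standard error 0.23, adjusted p = 0.605 from limma). Cxcr6, a chemokine receptor gene of tissue T cells and innate lymphoid cells, was at 5.83, 5.35, 6.06 and 4.85 and at 6.17, 6.94, 6.20 and 6.21 in the same order, with no overlap and a log2 fold change of 0.86 (0.27, adjusted p = 0.689 from limma). The third, Ccr9, a gut homing receptor gene, had 0.29 (0.12) at a dim signal. Itgae, the integrin gene of intraepithelial T cells, had 0.34 (0.16, adjusted p = 0.790 from limma), and the T helper genes Tbx21, Ifng and Il17a had -0.05, 0.10 and 0.0063. These last 3 genes were chosen after their values were seen.

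Some markers of other cells differed between the same tumors at an unadjusted p under 0.05. Over all genes, 3.73% were higher and 2.72% lower at that level. All 11 measured macrophage markers had higher means in the MDR1A KO group, and 7 had an unadjusted p under 0.05. Among these was Adgre1 (log2 fold change 0.67, standard error 0.14, adjusted p = 0.435 from limma). The macrophage list averaged 8.24 to 8.81 in WT and 8.77 to 8.97 in MDR1A KO tumors. Plasma cell markers averaged 7.23 to 8.25 and 7.999 to 8.51, with 2 of 8 genes higher at that level. The 10 epithelial markers all had lower means in the MDR1A KO group, and averaged 10.86 to 10.99 against 10.62 to 10.79. Of these, 2 had an unadjusted p under 0.05. They were Krt20 (-0.65, 0.19, adjusted p = 0.635 from limma) and Cdx2 (-0.65, 0.25, adjusted p = 0.756 from limma). B cell markers averaged 5.14 to 7.68 and 5.46 to 6.79 with 0 of 11 at that level, highest in WT replicate 3 and MDR1A KO replicate 2, the same tumors that led the T cell genes. The NK cell markers, of which 5 of 9 were dim, averaged 4.64 to 5.16 and 4.81 to 5.32, and Ncr1, a defining receptor gene of NK cells, was dim in all tumors at 4.19 to 4.89. The 4 measured genes of thymocytes, such as Rag2 and Dntt, averaged 4.64 to 4.77 and 4.596 to 4.78 and gave no call. Fibroblast and smooth muscle markers had higher means in 9 of 10 genes (median log2 fold change 0.40, 0 at that level) and averaged 9.10 to 10.69 in WT and 10.21 to 10.38 in MDR1A KO tumors, lowest in WT replicates 4 and 2. Means were higher in 7 of 8 mast cell and 5 of 7 dendritic cell markers, lower in 6 of 8 neutrophil markers and evenly split in 6 endothelial markers, with medians of 0.26, 0.12, -0.14 and -0.03 and 0 genes at that level in each. The part of these cell types in the T cell values was not tested.

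**Figure D5:**
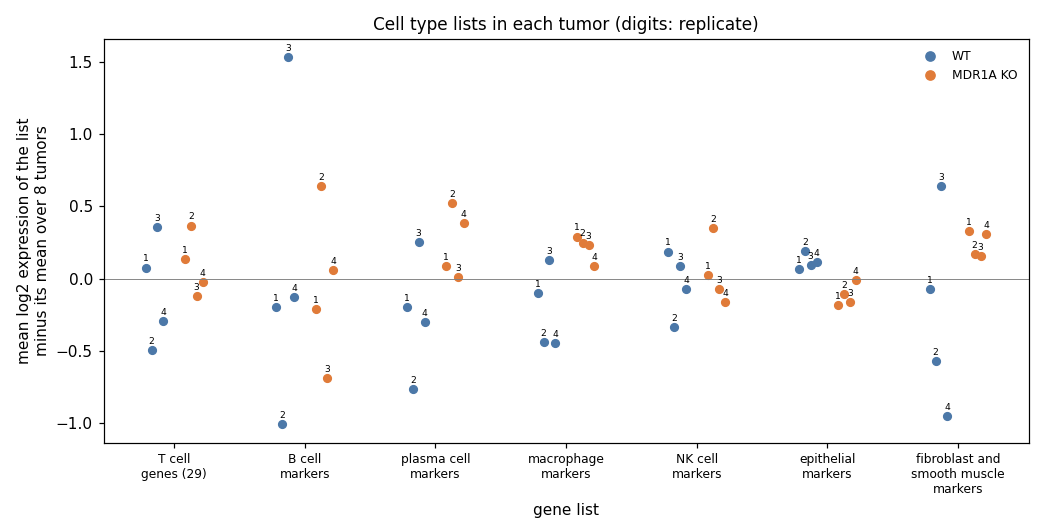
Mean log2 expression of the 29 T cell genes and of marker lists for other cells in each tumor, minus the mean of the list over the 8 tumors (blue, WT; orange, MDR1A KO; digits give the replicate). WT replicates 2 and 4 are low for T cell, plasma cell, macrophage and fibroblast lists, and WT replicate 3 leads the B cell list.

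By position, the 29 genes were spread over the genome. None lay on chromosome 5, which carries Abcb1a, and 3 lay on chromosome X (Foxp3, Sh2d1a and Cd40lg).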

How the data were processed

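RNA from 8 tumors was hybridised to Affymetrix Mouse Gene 2.0 ST arrays. The deposited values are log2 expression per probe set, which the authors made with robust multi-array averaging (RMA) in Affymetrix Expression Console 1.4. Sources used here give neither the genome build behind the probe sets nor which of 2 RNA kits each tumor had. Of 41345 probe sets 25341 carried a gene name and were tested with limma 3.58.1 (R 4.3.3), genotype being the only term, and p-values were adjusted over them (Benjamini-Hochberg). Counts over all genes use 22180 genes, each by its brightest probe set with a single symbol. Dim means a mean in the lowest 33.3%. Permutation tests over tumors were exact and two-sided (Python 3.11.15, scipy 1.17.1). The fit was tested on simulated data. RMA shrinks changes of dim genes, and the number of arrays limits the precision. The members, lists, tests and alternatives (filters, normalization, array weights, trend, the methods' t-test, a replicate block, tumors left out) were chosen with earlier results of these data known. All members were named, and of other lists the genes with the lowest p. Probe sets of several genes were left out, as was Tradd, whose symbol resembles those of receptor genes.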

Additional observations from a re-analysis of the deposited data

Results flagged for a closer look

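Of 58 sets of 4 tumors, 1 for each T cell gene and genotype, 4 held a tumor whose gap to the next was unusually wide for the range of its group (Dixon's criterion, which marks about 5% of sets by chance). In Cd6, MDR1A KO replicate 2 was at 6.96 on the log2 scale, while the other MDR1A KO tumors lay between 6.20 and 6.32. In Trat1, the same tumor was at 4.76 and the others between 4.06 and 4.11. In Cd40lg, WT replicate 3 was at 4.09 and the other WT tumors between 3.58 and 3.67. In Themis, WT replicate 3 was at 4.91 and the others between 4.08 and 4.21. Trat1, Cd40lg and Themis were dim. These are the tumors that also had the highest mean over all T cell genes in their genotype.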

How the results depend on the processing

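Of the count of 4 genes at an unadjusted p under 0.05, 1 was left under the methods' t-test (Bcl11b) and 2 with a replicate block (Il2ra and Bcl11b), and leaving out 1 tumor at a time gave 1 to 10. The labels number the tumors 1 to 4 in both genotypes, but same-numbered tumors did not deviate together (r of 0.11, 0.020, -0.10 and 0.35), so the numbers were not taken as pairs. The count at 2-fold was 1 with array weights and 1 at a threshold of 1.5-fold (Cd3g) instead of 0, and 0 to 1 without single tumors. The count of genes without overlap was 1 (Zap70, lower) after centring the arrays, and 0 to 4 without single tumors. For counts without single tumors the share of all genes was not computed. The count at an adjusted p under 0.05 stayed at 0 in every alternative run. The median log2 fold change ranged from 0.0055 without WT replicate 2 to 0.30 without WT replicate 3.

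Foxp3, whose p was closest to the threshold, passed it in the fewest alternatives of the 4. Of 517 values of single members under an alternative, 451 kept direction and side of the threshold and 35, in 14 members with log2 fold changes of at most 0.13 in size, reversed. With array weights Cd8b1 had 0.035, Cd2 0.017 and Themis 0.051, and quantile normalization gave Themis 0.0091. Without single tumors the log2 fold change ran from -0.050 to 0.16 for Cd8a, -0.25 to 0.15 for Cd8b1, -0.34 to 0.16 for Cd2, -0.11 to 0.41 for Cd27, -0.064 to 0.28 for Cd28, -0.14 to 0.067 for Cd40lg, -0.012 to 0.22 for Lat, -0.14 to 0.15 for Ubash3a, -0.0019 to 0.22 for Skap1, -0.19 to 0.19 for Themis, -0.20 to 0.59 for Il7r, -0.074 to 0.18 for Gata3, -0.14 to 0.099 for Ikzf2 and -0.39 to 0.34 for Ikzf3. The cause of these changes was not tested. With 4 tumors per genotype and 5 dim members, small changes cannot be resolved.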
